A study of Mus musculus with 16 samples.

Results

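Primary mouse articular chondrocytes, the cells that make and keep joint cartilage, were treated in culture with interleukin-1 beta (IL-1β, labelled il1b) at 1 ng/mL for 24 h and compared with cells labelled vehicle control, which received the same volume of phosphate-buffered saline for 24 h. The comparison took the 4 IL-1β libraries and the 4 vehicle libraries, 8 of the 16 libraries of the series, and the genes that reached 1 FPKM in 4 or more of these 8. FPKM is the number of sequenced fragments per kilobase of gene, scaled to the size of the library. The filter kept 12314 of 55450 genes. Both groups were grown at 3% O2 in medium with 10% serum, and RNA was sequenced after poly(A) selection with a stranded kit. The other 8 libraries, of bleomycin and doxorubicin cultures, were not part of the comparison. Mouse strain, age, sex and the number of animals behind each library were not stated, so the p-values measure the spread between these libraries, which may be technical.

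IL-1β is a secreted cytokine that macrophages and other cells release in inflamed joints. It binds the receptor Il1r1 with its partner Il1rap, and through the adaptor Myd88 and IRAK kinases it activates the transcription factor NF-κB and the MAP kinases that act on AP-1. In cartilage it is known for inducing enzymes that cut collagen and aggrecan and for lowering the production of matrix, and it is widely used in culture as a model of the inflamed joint.

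IL-1β treatment was followed by increases of acute-phase genes and of several chemokine and protease genes. All 8 cartilage collagens fell, as did 16 of 24 tested cartilage proteoglycans and matrix proteins. Serum amyloid A3 (Saa3) alone reached 62509 to 80249 FPKM, against 96.8 to 256 FPKM in vehicle. Chemokines (Cxcl1, Ccl2, Cxcl5), Mmp3, Mmp13, Nos2 and Lcn2 rose in mean FPKM between 8.37-fold (Mmp13) and 502-fold (Nos2), and all 22 cholesterol synthesis genes rose. Replicate 4 was the highest vehicle library for Nos2, and without it the fold of Nos2 was 1107. In limma's moderated test on log2(FPKM + 1), 4948 genes (40.2%) passed an adjusted p of 0.05, 2884 (23.4%) higher and 2064 (16.8%) lower. At least 2-fold changes numbered 501 (4.07%) higher and 224 (1.82%) lower. These shares are the background against which each group of genes below is read, together with the median log2 difference of all tested genes, 0.034. In 4838 genes (39.3%) the 4 IL-1β values did not overlap the 4 vehicle values, 2782 of them higher and 2056 lower. Because 1 FPKM was added before taking logs, a gene of low level changed by more than its log2 difference says. Another choice of scaling moved the balance of calls: with Saa3 left out and every library set to the same FPKM sum, the median of all genes moved to -0.113, and 1928 genes were higher and 3693 lower. With size factors from the median of ratios, 2635 were higher and 2394 lower, and with quantile normalization 2319 were higher and 2800 lower. Of the tested genes, 210 were under 1 FPKM in every vehicle library, so that they passed the filter only through IL-1β and had to differ. Another 72 were under 1 FPKM in every IL-1β library, so that they passed it only through vehicle and had to differ as well. Of the 286 genes named here that passed, 19 lost the call under 1 or more alternatives, 10 of them (Acp5, Cd44, Chuk, Ctf1, Il6ra, Pdk1, Ppbp, Rpl18, Rpl4 and Ugdh) when a single library was left out, with values in the closing section. Of the 39 named genes that did not pass, 19 passed under 1 or more alternatives, and these are named there as well.

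**Figure D1:**
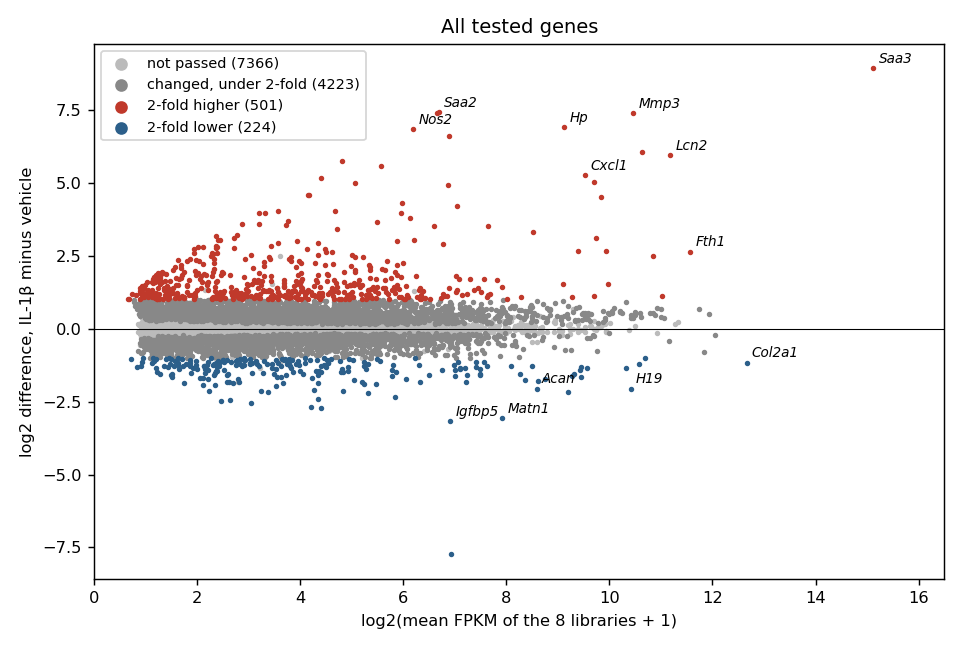
Each point is a tested gene, with the log2 of its mean FPKM + 1 over the 8 libraries on the x axis and its log2 difference, IL-1β minus vehicle, on the y axis. Red points are the 501 genes at least 2-fold higher and blue points the 224 at least 2-fold lower; Saa3 lies at the far upper right, at a log2 difference of 8.92.

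The libraries separated by treatment. The first principal component of log2(FPKM + 1) carried 73.1% of the variance and put the groups on opposite sides, and correlations were 0.985 to 0.990 within groups and 0.933 to 0.946 between them. FPKM sums were 521294 to 559190 in IL-1β, against 413564 to 423830 in vehicle. Saa3 took 12.0% to 14.4% of all FPKM in IL-1β, against 0.0233% to 0.0619% in vehicle, and the 10 most abundant genes together took 18.7% to 21.2% in IL-1β, against 8.34% to 8.92% in vehicle. Depth estimated from the steps between low values was 16.9 to 17.4 M fragments in IL-1β and 15.9 to 19.5 M in vehicle, so 1 FPKM on a gene of 1 kilobase stood for 15.9 to 19.5 fragments. The cell type label was checked against 10 chondrocyte markers: Col2a1, Acan, Sox9, Col9a1, Col11a2, Matn3, Hapln1, Comp, Cnmd and Snorc were all tested and were at 15.9 FPKM or more in every library. Their summed level was 5334 to 5782 FPKM in IL-1β, against 11934 to 15907 FPKM in vehicle.

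Acute-phase genes, which encode proteins made in bulk during inflammation, rose. All 18 tested members of this list rose, with a median log2 difference of 2.22, 15 of them at least 2-fold. Of the 20 members, Fgl2 and Itih4 were below the filter, and 7, among them Saa1 and Saa2, passed it only through IL-1β and had to differ. The other 11 all rose, 9 of them at least 2-fold, with a median log2 difference of 1.84. Saa3, on the minus strand of chromosome 7, 46711998 to 46715700 (GRCm38), encodes a serum amyloid A protein made by tissues outside the liver. It had 69449.7, 71601, 80249 and 62509 FPKM in the IL-1β libraries, against 115, 96.8, 155 and 256 FPKM in the vehicle libraries. The lowest IL-1β library was 244-fold above the highest vehicle library (log2 difference 8.92, SE 0.25, limma adjusted p = 7.07e-09). Lcn2, which encodes lipocalin 2, a protein that binds bacterial iron carriers, was at 4177, 3689.7, 5539 and 4764 FPKM in the IL-1β libraries, against 66.4, 42.8, 73.3 and 131 FPKM in the vehicle libraries. For Lcn2 the log2 difference was 5.94 (SE 0.28, limma adjusted p = 1.69e-07). Vehicle library 4 had the highest value of its group for both genes, and no vehicle value came near an IL-1β value. Hp, haptoglobin, which binds free haemoglobin, stood at 1013, 973, 1194 and 1248 FPKM in the IL-1β libraries, against 5.74, 5.41, 10.3 and 13.5 FPKM in the vehicle libraries. Hp differed by 6.91 on the log2 scale (SE 0.24, limma adjusted p = 2.73e-08). Saa2 (205 FPKM in IL-1β and 0.209 FPKM in vehicle, log2 difference 7.41) and Saa1 (200.2 FPKM in IL-1β and 0.214 FPKM in vehicle, log2 difference 7.38) rose; they are near-identical neighbours, and how their shared reads were split is not known here. Chil1, a chitinase-like protein that cartilage secretes in arthritis, is not on the list but was among the 10 largest increases, at 2891, 3300.4, 3459.8 and 2804 FPKM in the IL-1β libraries, against 45.3, 33.7, 42.9 and 66.6 FPKM in the vehicle libraries. For Chil1 the log2 difference was 6.05 (SE 0.17, limma adjusted p = 7.07e-09). All 4 of its IL-1β values lay far above the vehicle values. Steap4, a metalloreductase, had 250.01 FPKM in IL-1β and 13.5 FPKM in vehicle (log2 difference 4.19). Ptx3, the long pentraxin, had 813 FPKM in IL-1β and 282 FPKM in vehicle (log2 difference 1.54). The remaining largest increases were Vnn1 and Vnn3, members of the pantetheinase family. Vnn1 had 237, 252, 213 and 235 FPKM in the IL-1β libraries, against 1.68, 1.55, 0.824 and 1.63 FPKM in the vehicle libraries. Vnn1 differed by 6.62 on the log2 scale (SE 0.12, limma adjusted p = 9.02e-10). Vnn3 was at 53.5, 55.4, 52.0 and 54.3 FPKM in the IL-1β libraries, against 0, 0, 0 and 0.0462 FPKM in the vehicle libraries. For Vnn3 the log2 difference was 5.76 (SE 0.066, limma adjusted p = 1.93e-11). Vnn1 was under 2 FPKM in every vehicle library, and Vnn3 was listed at 0 in 3 of them and passed the filter only through IL-1β.

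The promoters of the 6 genes with the largest log2 differences that had an entry are shown because NF-κB, AP-1 and C/EBP factors act on such genes after IL-1β. Each is the 250 bases before the first start listed by RefSeq (GRCm38.p6), 5′ to 3′ on the gene's strand: Saa3 chr7:46715677-46715926 (minus), Saa2 chr7:46751583-46751832 (plus), Mmp3 chr9:7445572-7445821 (plus), Saa1 chr7:46742981-46743230 (minus), Chil1 chr1:134181906-134182155 (plus) and Lcn2 chr2:32387740-32387989 (minus). Capitals mark matches to the κB consensus, to AP-1 (TGACTCA or TGAGTCA) and to C/EBP (TTNNGNAA), each searched on both strands.
Saa3: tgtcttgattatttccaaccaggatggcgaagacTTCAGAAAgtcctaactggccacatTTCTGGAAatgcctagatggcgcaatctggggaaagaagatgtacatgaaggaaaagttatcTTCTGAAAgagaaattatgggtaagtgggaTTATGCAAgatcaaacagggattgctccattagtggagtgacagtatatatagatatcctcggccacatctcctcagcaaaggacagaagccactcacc
Saa2: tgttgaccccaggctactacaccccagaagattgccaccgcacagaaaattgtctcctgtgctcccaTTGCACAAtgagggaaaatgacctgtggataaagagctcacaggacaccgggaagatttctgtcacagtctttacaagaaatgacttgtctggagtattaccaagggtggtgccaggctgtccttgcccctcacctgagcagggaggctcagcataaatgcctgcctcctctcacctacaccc
Mmp3: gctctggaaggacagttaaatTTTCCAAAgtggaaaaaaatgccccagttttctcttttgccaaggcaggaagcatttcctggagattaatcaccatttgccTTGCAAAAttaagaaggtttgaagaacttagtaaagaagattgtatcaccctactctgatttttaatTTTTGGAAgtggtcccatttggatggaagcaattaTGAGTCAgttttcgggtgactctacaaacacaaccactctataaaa
Saa1: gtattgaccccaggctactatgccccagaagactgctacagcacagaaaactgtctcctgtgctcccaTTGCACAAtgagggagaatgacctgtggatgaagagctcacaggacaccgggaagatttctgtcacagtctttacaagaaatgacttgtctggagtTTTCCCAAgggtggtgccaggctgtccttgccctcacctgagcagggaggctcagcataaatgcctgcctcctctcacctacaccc
Chil1: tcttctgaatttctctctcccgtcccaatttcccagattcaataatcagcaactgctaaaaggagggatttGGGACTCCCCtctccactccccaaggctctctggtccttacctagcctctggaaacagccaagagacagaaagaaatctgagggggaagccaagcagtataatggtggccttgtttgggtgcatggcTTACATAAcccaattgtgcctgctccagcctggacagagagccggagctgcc
Lcn2: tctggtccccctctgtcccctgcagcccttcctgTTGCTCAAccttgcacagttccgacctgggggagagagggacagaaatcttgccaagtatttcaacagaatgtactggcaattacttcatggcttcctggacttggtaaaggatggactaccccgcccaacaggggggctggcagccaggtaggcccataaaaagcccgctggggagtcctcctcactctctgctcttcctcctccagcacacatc
Positions count from -1, the base before the start. Saa3 held 4 C/EBP matches, beginning at -216, -191, -129 and -99. Mmp3 held 3 C/EBP matches and the AP-1 match TGAGTCA at -46. Saa2 held 1 C/EBP match and Saa1 held 2, Lcn2 held 1 at -216, and Chil1 held 1 together with the κB match GGGACTCCCC at -179. No κB match to this consensus lay in the other 5 windows, which says only that these letters are not there. Of 29 candidate genes 20 had an entry. Over all 27025 promoters in the table, 3.75% held a κB match, 4.43% an AP-1 match and 36.9% a C/EBP match. Among tested genes with an entry, a κB match was in 39 of 346 promoters (11.3%) of genes at least 2-fold higher, in 7 of 150 (4.67%) of genes at least 2-fold lower and in 226 of 5484 (4.12%) of genes that did not pass. In the same order of higher, lower and not passed, the shares were 7.23%, 6.0% and 2.7% for AP-1 and 41.6%, 31.3% and 26.4% for C/EBP. These shares are descriptions, and a match is not a site of binding.

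**Figure D2:**
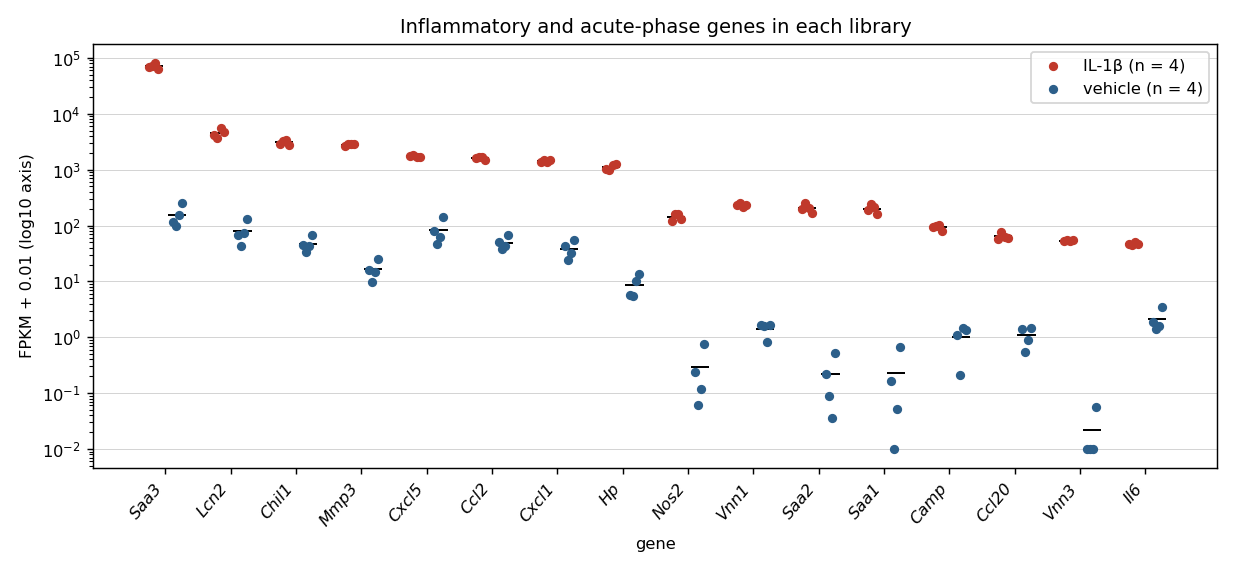
FPKM + 0.01 on a log10 axis for 16 genes, with IL-1β libraries (red, n = 4) left of vehicle libraries (blue, n = 4) and a black line at each group mean. In every gene the 4 IL-1β libraries lie above the 4 vehicle libraries, and Saa3 reaches 62509 to 80249 FPKM.

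Several chemokines that attract neutrophils and monocytes rose. Of 9 tested CXC chemokines 6 rose and 3 fell (median log2 difference 2.32), so that all 9 passed. Of these, 3 (Cxcl2, Cxcl10 and Cxcl16) were under 1 FPKM in every vehicle library, passed the filter only through IL-1β and had to differ. Of the other 6, 3 rose and 3 fell, with a median of 1.44. Cxcl1, a neutrophil attractant, stood at 1392, 1462, 1381 and 1517 FPKM in the IL-1β libraries, against 42.3, 24.3, 31.8 and 55.5 FPKM in the vehicle libraries. Cxcl1 differed by 5.25 on the log2 scale (SE 0.20, limma adjusted p = 5.35e-08). Cxcl5, another neutrophil attractant and the most abundant of the list, had 1738, 1857, 1669.8 and 1715 FPKM in the IL-1β libraries, against 79.7, 47.0, 62.8 and 139.8 FPKM in the vehicle libraries. For Cxcl5 the log2 difference was 4.51 (SE 0.26, limma adjusted p = 6.98e-07). The groups were far apart in both genes. Cxcl2 (33.2 FPKM in IL-1β and 0.449 FPKM in vehicle, log2 difference 4.58) and Cxcl3 (178 FPKM in IL-1β and 14.9 FPKM in vehicle, log2 difference 3.51) rose as well. Cxcl12, which holds stem cells and lymphocytes through Cxcr4, fell to 22.7 FPKM in IL-1β, against 42.7 FPKM in vehicle (log2 difference -0.83, SE 0.21, limma adjusted p = 0.0107), and Cxcl14 and Ppbp fell by 0.82 and 0.64 on the log2 scale. The other 5 members were below the filter. Among CC chemokines and Cx3cl1, 7 of 8 tested members rose and Ccl25 did not pass (median log2 difference 2.78). Ccl5 was under 1 FPKM in every vehicle library, passed the filter only through IL-1β and had to differ. Without Ccl5, 6 of the other 7 rose (median 2.25). Ccl2, the main monocyte attractant, was at 1601, 1705, 1668 and 1489 FPKM in the IL-1β libraries, against 49.8, 37.7, 42.3 and 67.2 FPKM in the vehicle libraries. Ccl2 differed by 5.04 on the log2 scale (SE 0.15, limma adjusted p = 8.68e-09). Ccl20 had 64.1 ± 9.30 FPKM in IL-1β and 1.07 ± 0.451 FPKM in vehicle (log2 difference 4.99, SE 0.16, limma adjusted p = 1.66e-08). Ccl5 had 33.5 ± 7.88 FPKM in IL-1β and 0.444 ± 0.2997 FPKM in vehicle (log2 difference 4.57, SE 0.17, limma adjusted p = 4.79e-08). Ccl7 had 663 ± 14.6 FPKM in IL-1β and 67.6 ± 18.9 FPKM in vehicle (log2 difference 3.31, SE 0.16, limma adjusted p = 2.05e-07). Each ± after a mean is an SD over 4 libraries. Ccl3, Ccl4 and 6 other members were below the filter.

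Among cytokines the IL-6 family was split. Of 12 tested members 6 rose, 1 fell and 5 did not pass (median log2 difference 0.29). Il6, the cytokine that drives acute-phase genes through Stat3, stood at 47.6, 44.1, 51.2 and 46.2 FPKM in the IL-1β libraries, against 1.88, 1.38, 1.61 and 3.43 FPKM in the vehicle libraries. For Il6 the log2 difference was 4.01 (SE 0.17, limma adjusted p = 9.53e-08). The 4 IL-1β values lay close together and far above every vehicle value. Lif had 7.54 FPKM in IL-1β and 1.43 FPKM in vehicle (log2 difference 1.82), and Il6ra and Ctf1 rose by 0.53 and 0.47. The shared receptor chain Il6st, the most abundant member, had 96.2 ± 22.2 FPKM in IL-1β and 87.4 ± 26.4 FPKM in vehicle and did not pass (limma adjusted p = 0.632), nor did Stat3 (58.8 ± 4.20 FPKM in IL-1β and 52.6 ± 3.90 FPKM in vehicle, limma adjusted p = 0.115). In the list of colony-stimulating factors and the TNF family, 9 of 11 tested members rose, 1 fell and 1 did not pass (median log2 difference 1.17). Below the filter were 8 of 19 members, among them Csf2, Tnf and Tnfrsf11a. Of those tested, 3, among them Tnfrsf9 and Csf3, passed it only through IL-1β and had to differ. Of the other 8, 6 rose and 1 fell, with a median of 0.646. Tnfrsf9 (10.5 FPKM in IL-1β and 0.679 FPKM in vehicle, log2 difference 2.75), the death receptor Fas (64.5 FPKM in IL-1β and 15.4 FPKM in vehicle, log2 difference 1.99), the granulocyte factor Csf3 (3.16 FPKM in IL-1β and 0.114 FPKM in vehicle, log2 difference 1.88) and the TNF receptor Tnfrsf1b (21.9 FPKM in IL-1β and 6.32 FPKM in vehicle, log2 difference 1.65) rose. Csf1, the macrophage growth factor, fell to 68.7 FPKM in IL-1β, against 100.4 FPKM in vehicle (log2 difference -0.54, SE 0.065, limma adjusted p = 0.00011). Tnfsf11, the osteoclast ligand RANKL, rose with 7.09 ± 0.530 FPKM in IL-1β and 3.53 ± 0.595 FPKM in vehicle (log2 difference 0.84, SE 0.11, limma adjusted p = 0.000144), whereas its decoy receptor Tnfrsf11b had 165 ± 20.1 FPKM in IL-1β and 185 ± 23.9 FPKM in vehicle and did not pass (limma adjusted p = 0.277).

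Genes of the receptor and its immediate signalling chain changed about as often as all tested genes, in both directions. Of 18 tested members 5 rose, 3 fell and 10 did not pass (median log2 difference 0.11, and -0.05 with equal FPKM sums without Saa3). Over all tested genes 23.4% were higher and 16.8% lower. The receptor Il1r1 had 26.6 ± 3.56 FPKM in IL-1β and 24.0 ± 3.29 FPKM in vehicle and did not pass (log2 difference 0.14, SE 0.12, limma adjusted p = 0.369). Il1rn, the natural antagonist of the receptor, fell, at 4.21, 3.03, 6.99 and 3.63 FPKM in the IL-1β libraries, against 11.2, 13.1, 12.3 and 31.2 FPKM in the vehicle libraries. Il1rn differed by -1.64 on the log2 scale (SE 0.31, limma adjusted p = 0.002). Every IL-1β library was below every vehicle library. Il1rl1, the receptor for interleukin 33 and the most abundant member, fell to 44.3 FPKM in IL-1β, against 81.1 FPKM in vehicle (log2 difference -0.86, SE 0.14, limma adjusted p = 0.000774). Irak3, an IRAK family member that restrains the pathway, rose with 23.1 ± 1.42 FPKM in IL-1β and 3.37 ± 0.275 FPKM in vehicle (log2 difference 2.46, SE 0.077, limma adjusted p = 1.35e-08), as did Map3k8 (8.54 FPKM in IL-1β and 2.88 FPKM in vehicle, log2 difference 1.31), Irak2 (5.67 FPKM in IL-1β and 2.46 FPKM in vehicle, log2 difference 0.95) and the receptor partner Il1rap (7.49 FPKM in IL-1β and 4.85 FPKM in vehicle, log2 difference 0.54). The kinase adaptor Tab2 fell by 0.52 on the log2 scale, with 31.4 FPKM in IL-1β and 45.3 FPKM in vehicle. The ligand gene Il1b itself was at 0 FPKM in all 8 libraries, and Il1a, Il1r2, Il33 and Sigirr were below the filter.

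NF-κB subunits and inhibitors rose: of 26 tested members 18 rose, 1 fell (Chuk, log2 difference -0.21) and 7 did not pass (median log2 difference 0.70). Nfkbia, the inhibitor IκBα that NF-κB induces, had 86.8, 79.4, 87.6 and 84.3 FPKM in the IL-1β libraries, against 15.9, 13.1, 16.4 and 19.5 FPKM in the vehicle libraries. For Nfkbia the log2 difference was 2.32 (SE 0.10, limma adjusted p = 1.18e-07), with no overlap between the groups. Zc3h12a, an RNase that degrades cytokine messages, rose most, with 47.0 ± 1.85 FPKM in IL-1β and 3.54 ± 0.845 FPKM in vehicle (log2 difference 3.42, SE 0.12, limma adjusted p = 3.26e-08). Nfkbiz, a nuclear IκB protein needed for a class of acute-phase genes, had 65.0 ± 3.05 FPKM in IL-1β and 14.5 ± 2.70 FPKM in vehicle (log2 difference 2.11, SE 0.11, limma adjusted p = 3.01e-07). Tnip3 had 2.62 FPKM in IL-1β and 0.0102 FPKM in vehicle and passed the filter only through IL-1β. Among the subunits, Nfkb1 (50.7 FPKM in IL-1β and 27.1 FPKM in vehicle, log2 difference 0.88), Nfkb2 (16.4 FPKM in IL-1β and 8.92 FPKM in vehicle, log2 difference 0.81) and Relb (14.9 FPKM in IL-1β and 6.82 FPKM in vehicle, log2 difference 1.02) rose. Rela (24.4 FPKM in IL-1β and 21.1 FPKM in vehicle, limma adjusted p = 0.0672) and Rel (1.27 FPKM in IL-1β and 1.25 FPKM in vehicle, limma adjusted p = 0.915) did not pass. Nfkb2 (limma adjusted p = 2.11e-05) overlaps a gene on the opposite strand, 4833438C02Rik. Of AP-1, C/EBP and early response factors 12 of 21 tested members rose, 3 fell and 6 did not pass (median log2 difference 0.35). Without Elf3, which passed the filter only through IL-1β, 11 of the other 20 rose and 3 fell (median 0.344). Batf (41.2 FPKM in IL-1β and 5.89 FPKM in vehicle, log2 difference 2.62), Cebpb (79.4 FPKM in IL-1β and 19.1 FPKM in vehicle, log2 difference 2.02), Ier3 (202 FPKM in IL-1β and 57.0 FPKM in vehicle, log2 difference 1.81), Cebpd (64.6 FPKM in IL-1β and 23.8 FPKM in vehicle, log2 difference 1.42) and Fosl1 (29.4 FPKM in IL-1β and 10.4 FPKM in vehicle, log2 difference 1.41) rose. The immediate early genes Fos (4.21 FPKM in IL-1β and 5.42 FPKM in vehicle), Jun (21.5 FPKM in IL-1β and 19.9 FPKM in vehicle) and Egr1 (9.44 FPKM in IL-1β and 9.16 FPKM in vehicle) did not pass at this time point of 24 h, nor did Jund (58.6 FPKM in IL-1β and 53.1 FPKM in vehicle). Klf2 and Klf4, factors with anti-inflammatory roles in vessel walls, fell with log2 differences of -0.98 and -0.63, and Cebpg fell by 0.34. Of MAPK phosphatases and cytokine feedback genes, 4 of 15 tested were higher, 4 lower and 7 not passed (median log2 difference 0.00051, and -0.16 with equal sums). Over all tested genes 23.4% were higher and 16.8% lower. Without Cish, which passed the filter only through IL-1β, 3 of the other 14 were higher and 4 lower. Zfp36l1, which binds AU-rich messages, rose with 45.3 ± 2.09 FPKM in IL-1β and 15.4 ± 0.817 FPKM in vehicle (log2 difference 1.5, SE 0.062, limma adjusted p = 9e-08), and Dusp8 and Socs2 fell by 0.73 and 0.71. Dusp1 (50.1 FPKM in IL-1β and 58.4 FPKM in vehicle, limma adjusted p = 0.0791) and Socs3 (40.0 FPKM in IL-1β and 37.8 FPKM in vehicle, limma adjusted p = 0.555), the most abundant members, did not pass.

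Complement genes rose in 9 of 12 tested members, with 3 not passed and none lower, also at an unadjusted p under 0.05 (median log2 difference 1.37); the 10 members below the filter included C1qa, C1qb and C1qc. C3, the central component, was at 108, 109, 128 and 118 FPKM in the IL-1β libraries, against 6.83, 5.03, 6.39 and 8.14 FPKM in the vehicle libraries. C3 differed by 3.95 on the log2 scale (SE 0.12, limma adjusted p = 8.68e-09). Cfb, which forms the alternative pathway convertase with C3, stood at 123, 125, 106 and 121 FPKM in the IL-1β libraries, against 4.396, 3.37, 5.94 and 6.82 FPKM in the vehicle libraries. For Cfb the log2 difference was 4.32 (SE 0.16, limma adjusted p = 4.23e-08). Neither gene overlapped between the groups. C1s1 (104 FPKM in IL-1β and 12.1 FPKM in vehicle, log2 difference 3.00), a protease of the classical pathway, and Serping1 (52.6 FPKM in IL-1β and 12.3 FPKM in vehicle, log2 difference 2.01), its inhibitor, rose. Genes of antigen presentation, the immunoproteasome and interferon-inducible GTPases rose in 15 of 16 tested members (median log2 difference 0.76), with Irgm1 not passed (limma adjusted p = 0.0529) and 7 members below the filter. Gbp2 (15.0 FPKM in IL-1β and 2.69 FPKM in vehicle, log2 difference 2.15), Tapbp (67.1 FPKM in IL-1β and 20.2 FPKM in vehicle, log2 difference 1.70), Nlrc5 (2.95 FPKM in IL-1β and 0.272 FPKM in vehicle, log2 difference 1.62) and H2-K1 (71.5 FPKM in IL-1β and 31.2 FPKM in vehicle, log2 difference 1.17) rose. Of these, Nlrc5 passed the filter only through IL-1β. B2m, the light chain of class I molecules and the most abundant member, rose with 298 ± 10.0 FPKM in IL-1β and 188 ± 9.35 FPKM in vehicle (log2 difference 0.66, SE 0.056, limma adjusted p = 9.01e-06). H2-D1 rose by 0.93, with 186 FPKM in IL-1β and 96.7 FPKM in vehicle. H2-K1, H2-D1 and H2-Q7 are similar genes whose shared reads the counting could split. Interferon-stimulated genes were mostly below the filter, 18 of 30, and of the 12 tested 5 rose and 7 did not pass (median log2 difference 0.37). Of these 12, 1 passed the filter only through IL-1β and had to differ, and 4 of the other 11 rose (median 0.343). Ifi27, the most abundant member, had 122 FPKM in IL-1β and 86.6 FPKM in vehicle (log2 difference 0.49). Bst2 had 14.0 FPKM in IL-1β and 6.11 FPKM in vehicle (log2 difference 1.08), Irf1 rose with 17.5 ± 0.893 FPKM in IL-1β and 11.3 ± 0.947 FPKM in vehicle (log2 difference 0.59, SE 0.076, limma adjusted p = 0.000163). Isg15 (3.11 FPKM in IL-1β and 2.12 FPKM in vehicle) did not pass (limma adjusted p = 0.179).

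Genes of nitric oxide and prostaglandin synthesis rose in 12 of 17 tested members, fell in 2 and did not pass in 3 (median log2 difference 0.82). Without Nos2 and Arg2, which passed the filter only through IL-1β, 10 of the other 15 rose and 2 fell (median 0.659). Nos2, the inducible nitric oxide synthase, had 122, 162, 159 and 133 FPKM in the IL-1β libraries, against 0.232, 0.0519, 0.106 and 0.758 FPKM in the vehicle libraries (log2 difference 6.84, SE 0.16, limma adjusted p = 3.28e-09), and its vehicle values were all under 1 FPKM. Genes that supply it rose as well: Slc7a2, an arginine transporter, had 104 FPKM in IL-1β and 21.2 FPKM in vehicle (log2 difference 2.24). Gch1, which makes its cofactor, had 30.6 FPKM in IL-1β and 7.79 FPKM in vehicle (log2 difference 1.85). Ass1, which recycles citrulline, had 34.6 FPKM in IL-1β and 13.7 FPKM in vehicle (log2 difference 1.27). Arg2, an arginase, had 16.2 ± 2.24 FPKM in IL-1β and 0.113 ± 0.0709 FPKM in vehicle (log2 difference 3.95, SE 0.11, limma adjusted p = 5.52e-09) and passed the filter only through IL-1β. Ptges, the inducible prostaglandin E synthase, had 53.4 ± 6.75 FPKM in IL-1β and 8.50 ± 1.06 FPKM in vehicle (log2 difference 2.52, SE 0.11, limma adjusted p = 9.44e-08). Ptgs2, the inducible cyclooxygenase, was at 20.95, 24.4, 14.8 and 15.6 FPKM in the IL-1β libraries, against 10.9, 12.5, 7.14 and 10.7 FPKM in the vehicle libraries. Ptgs2 differed by 0.82 on the log2 scale (SE 0.18, limma adjusted p = 0.00579). Its groups did not overlap, with the lowest IL-1β library at 14.8 FPKM and the highest vehicle library at 12.5 FPKM. Hpgd, which inactivates prostaglandins, and Ptgis, the prostacyclin synthase, fell by 0.99 and 0.86 on the log2 scale. In the list of oxidative stress, iron and metal handling, 23 of 26 tested members rose and 3 did not pass (median log2 difference 1.01). Sod2, the mitochondrial superoxide dismutase, stood at 146, 117, 138 and 126 FPKM in the IL-1β libraries, against 15.8, 12.9, 15.7 and 15.998 FPKM in the vehicle libraries. For Sod2 the log2 difference was 3.04 (SE 0.091, limma adjusted p = 8.68e-09). Vehicle library 2 was the lowest of its group, and all IL-1β values were far above. Fth1, the ferritin heavy chain and the most abundant member, had 5205 ± 849 FPKM in IL-1β and 833 ± 48.5 FPKM in vehicle (log2 difference 2.63, SE 0.11, limma adjusted p = 1.13e-07). Slc39a8, a zinc transporter, had 82.0 ± 3.35 FPKM in IL-1β and 5.67 ± 0.819 FPKM in vehicle (log2 difference 3.65, SE 0.09, limma adjusted p = 4.25e-09), and the metallothioneins Mt1 (1701 FPKM in IL-1β and 266 FPKM in vehicle, log2 difference 2.67) and Mt2 (3137 FPKM in IL-1β and 553 FPKM in vehicle, log2 difference 2.50) rose. Gsta4, a glutathione transferase, had 29.4 FPKM in IL-1β and 3.63 FPKM in vehicle (log2 difference 2.72). Gpx1 was lower in its mean, with 58.9 ± 30.8 FPKM in IL-1β and 109 ± 68.1 FPKM in vehicle, but its libraries overlapped and it did not pass (limma adjusted p = 0.242).

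**Figure D3:**
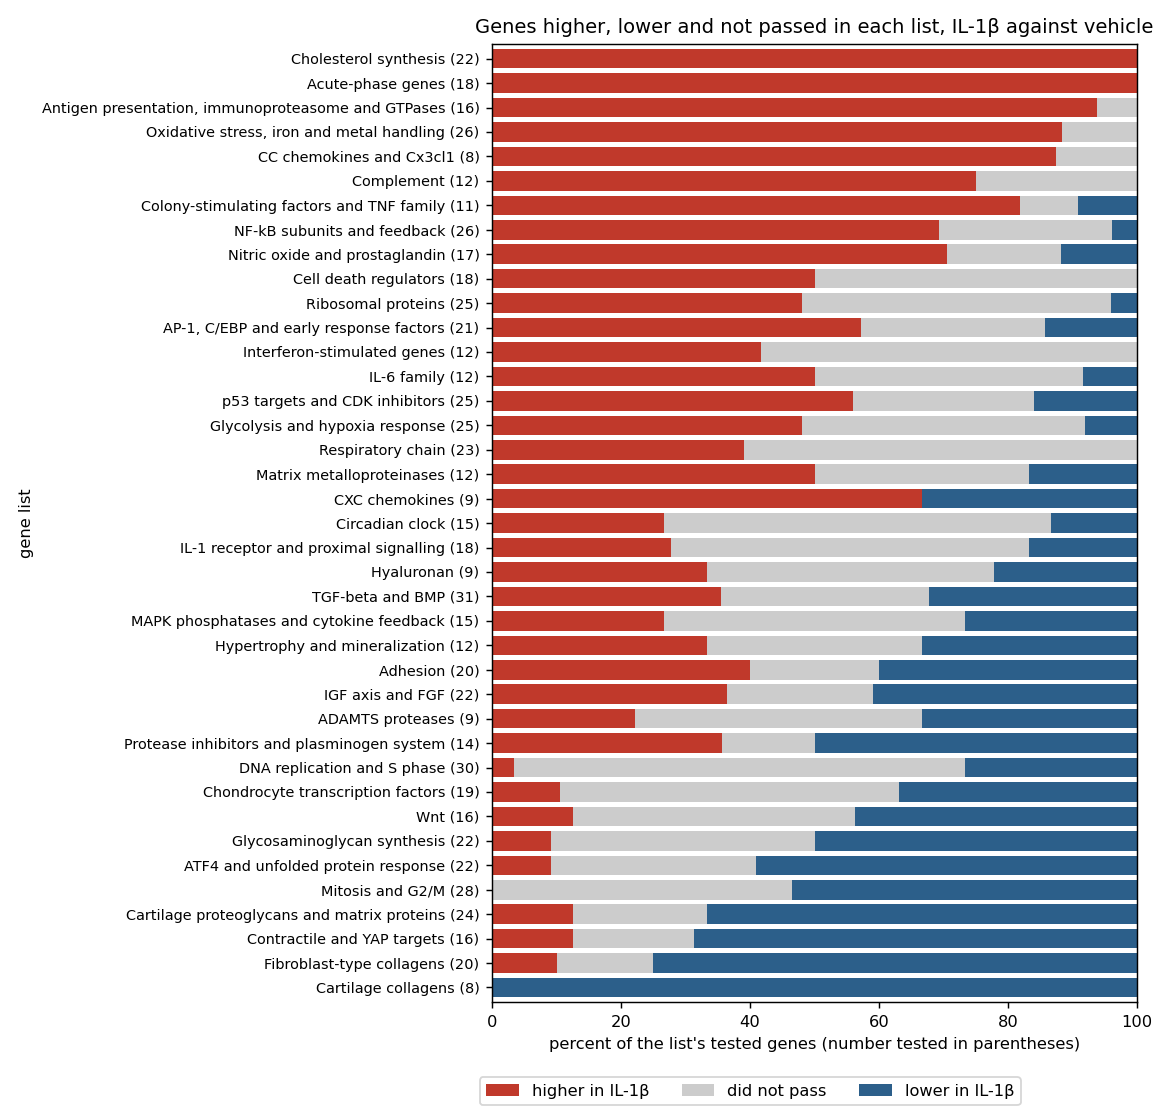
For each of 39 gene lists, the percent of its tested genes that were higher (red), not passed (grey) and lower (blue) in IL-1β against vehicle, ordered by the difference of higher and lower shares, with the number tested in parentheses. Over all tested genes 23.4% were higher and 16.8% lower; the tested cholesterol synthesis and acute-phase genes are all higher and cartilage collagens all lower.

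Some proteases that degrade cartilage matrix rose. Of 12 tested matrix metalloproteinases 6 rose, 2 fell and 4 did not pass (median log2 difference 0.26), and 4 members were below the filter. Of those tested, 3 (Mmp9, Mmp10 and Mmp12) passed it only through IL-1β and had to differ. Of the other 9, 3 rose and 2 fell (median log2 difference -0.149), near the 23.4% higher and 16.8% lower over all tested genes. Mmp3, stromelysin 1, which cuts proteoglycans and activates collagenases, had 2599, 2830.0, 2914 and 2855 FPKM in the IL-1β libraries, against 16.2, 9.88, 14.6 and 25.5 FPKM in the vehicle libraries. Mmp3 differed by 7.39 on the log2 scale (SE 0.21, limma adjusted p = 7.44e-09). Mmp13, the main collagenase of cartilage, was at 1537, 1581, 1432 and 1523 FPKM in the IL-1β libraries, against 175, 135, 159 and 257 FPKM in the vehicle libraries. For Mmp13 the log2 difference was 3.10 (SE 0.16, limma adjusted p = 3.13e-07). Both groups of libraries were well separated for each gene. Mmp10 (4.21 FPKM in IL-1β and 0.225 FPKM in vehicle), Mmp9 (3.02 FPKM in IL-1β and 0.0670 FPKM in vehicle) and Mmp12 (2.56 FPKM in IL-1β and 0.143 FPKM in vehicle) stayed low on the FPKM scale. Mmp14 (94.9 ± 7.52 FPKM in IL-1β and 85.3 ± 0.497 FPKM in vehicle), which activates Mmp2, did not pass (limma adjusted p = 0.0839), and Mmp16 and Mmp23 fell by 0.76 and 0.48. Of 9 tested ADAMTS proteases 2 rose, 3 fell and 4 did not pass (median log2 difference -0.0093), and 7 were below the filter. Without Adamts7, which passed it only through IL-1β, 1 of the other 8 rose and 3 fell (median -0.0636). The same shares over all tested genes, 23.4% higher and 16.8% lower, stand beside this count. Adamts5, the major aggrecanase of mouse cartilage, stood at 16.04, 17.2, 14.9 and 17.1 FPKM in the IL-1β libraries, against 10.4, 10.1, 9.84 and 12.2 FPKM in the vehicle libraries. Adamts5 differed by 0.58 on the log2 scale (SE 0.082, limma adjusted p = 0.000337), without overlap. Adamts4, the other main aggrecanase, had 1.93, 2.07, 1.55 and 2.46 FPKM in the IL-1β libraries, against 1.67, 1.08, 1.85 and 2.07 FPKM in the vehicle libraries, and it did not pass (log2 difference 0.18, SE 0.14, limma adjusted p = 0.358). It overlaps a gene on the opposite strand. Adamts1, the most abundant member, had 35.8 ± 2.70 FPKM in IL-1β and 36.0 ± 2.02 FPKM in vehicle and did not pass (limma adjusted p = 0.93). Adamts7, which cleaves cartilage oligomeric matrix protein, had 5.26 ± 0.862 FPKM in IL-1β and 0.567 ± 0.0959 FPKM in vehicle (log2 difference 1.99, SE 0.11, limma adjusted p = 5.32e-07) and was under 1 FPKM in every vehicle library. Adamts12, Adamts14 and Adamts2 fell by 0.77, 0.67 and 0.54. The list of protease inhibitors and the plasminogen system split: of its 14 tested members 5 rose, 7 fell and 2 did not pass (median log2 difference -0.22). It also holds the proteases Plau and Plat and the receptor Plaur, so these are not counts of inhibitors alone. Timp1 was at 866, 950.0, 979 and 894 FPKM in the IL-1β libraries, against 637, 647, 635 and 679.8 FPKM in the vehicle libraries. For Timp1 the log2 difference was 0.50 (SE 0.059, limma adjusted p = 9.25e-05). Timp3, the matrix-bound inhibitor that also blocks aggrecanases, stood at 235, 220.1, 177 and 228 FPKM in the IL-1β libraries, against 1006, 986, 882 and 967 FPKM in the vehicle libraries. Timp3 differed by -2.16 on the log2 scale (SE 0.091, limma adjusted p = 9.72e-08). These 2 inhibitors moved in opposite directions, each without overlap. Serpinb2 (2.97 FPKM in IL-1β and 0.0417 FPKM in vehicle) rose by 1.93 and passed the filter only through IL-1β, A2m (7.92 FPKM in IL-1β and 27.5 FPKM in vehicle, log2 difference -1.68) and Plau (8.83 FPKM in IL-1β and 20.3 FPKM in vehicle, log2 difference -1.12) fell. Timp2 fell by 0.24. Serpinh1, a chaperone of collagen and among the most abundant members, fell with 455 ± 58.8 FPKM in IL-1β and 758 ± 78.7 FPKM in vehicle (log2 difference -0.74, SE 0.11, limma adjusted p = 0.000356).

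Cartilage matrix genes fell. All 8 cartilage collagens were tested and all 8 fell, with a median log2 difference of -1.22 and no overlap between the groups in any. Col2a1, the chain of type II collagen and the main protein of cartilage, had 3893, 3914, 4191 and 3889 FPKM in the IL-1β libraries, against 8163, 9054, 10625 and 8040.5 FPKM in the vehicle libraries. For Col2a1 the log2 difference was -1.17 (SE 0.095, limma adjusted p = 7.06e-06). Its share of all FPKM was 0.722% to 0.749% in IL-1β, against 1.94% to 2.51% in vehicle. Col9a1, a chain of the type IX collagen on the fibril surface, was at 419, 386, 397 and 379.8 FPKM in the IL-1β libraries, against 827, 999.7, 1189.6 and 956 FPKM in the vehicle libraries. Col9a1 differed by -1.32 on the log2 scale (SE 0.10, limma adjusted p = 4.14e-06). The vehicle libraries were in every case above the IL-1β libraries. Col27a1 (17.7 FPKM in IL-1β and 68.8 FPKM in vehicle, log2 difference -1.91), Col11a1 (374 FPKM in IL-1β and 1004 FPKM in vehicle, log2 difference -1.42) and Col11a2 (158 FPKM in IL-1β and 388 FPKM in vehicle, log2 difference -1.27) fell, and Col10a1, the collagen of hypertrophic chondrocytes, by 0.59. In bulk RNA, fewer cells of a type and less RNA of that type per cell cannot be told apart. Of 24 tested cartilage proteoglycans and matrix proteins 16 fell, 3 rose and 5 did not pass (median log2 difference -0.79). Acan, aggrecan, the large proteoglycan that holds water in cartilage, stood at 154, 154, 146 and 137 FPKM in the IL-1β libraries, against 559.6, 627, 722 and 570.1 FPKM in the vehicle libraries. For Acan the log2 difference was -2.05 (SE 0.085, limma adjusted p = 9e-08). Matn1, matrilin 1, had the largest fall of the list, at 50.9, 42.3, 53.5 and 48.0 FPKM in the IL-1β libraries, against 307, 466, 617 and 341 FPKM in the vehicle libraries. Matn1 differed by -3.08 on the log2 scale (SE 0.19, limma adjusted p = 1.09e-06). Neither gene overlapped. Matn3 had 17.6 ± 1.21 FPKM in IL-1β and 94.5 ± 13.8 FPKM in vehicle (log2 difference -2.35, SE 0.10, limma adjusted p = 1.04e-07). Cytl1 had 3.67 FPKM in IL-1β and 17.4 FPKM in vehicle (log2 difference -1.96). Ogn, osteoglycin, had 33.7 FPKM in IL-1β and 124 FPKM in vehicle (log2 difference -1.84). Thbs1, thrombospondin 1, had 927 ± 126 FPKM in IL-1β and 2121 ± 171 FPKM in vehicle (log2 difference -1.20, SE 0.10, limma adjusted p = 1.19e-05). Comp, which links collagen fibrils, had 302 ± 31.8 FPKM in IL-1β and 934 ± 143 FPKM in vehicle (log2 difference -1.62, SE 0.11, limma adjusted p = 2.21e-06). Prg4, lubricin of the joint surface, rose with 38.1 ± 4.00 FPKM in IL-1β and 21.1 ± 2.52 FPKM in vehicle (log2 difference 0.82, SE 0.10, limma adjusted p = 0.000102), as did Dcn, decorin (808 FPKM in IL-1β and 492 FPKM in vehicle, log2 difference 0.72), and Matn2 (18.8 FPKM in IL-1β and 11.5 FPKM in vehicle, log2 difference 0.67). Cilp, Cilp2 and Crtac1 were below the filter.

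Collagens typical of fibroblasts and their partners fell too, 15 of 20, with 2 higher and 3 not passed (median log2 difference -0.50). Col1a2 (335 FPKM in IL-1β and 1063 FPKM in vehicle, log2 difference -1.66), Col3a1 (154 FPKM in IL-1β and 458 FPKM in vehicle, log2 difference -1.57) and Col1a1 (425 FPKM in IL-1β and 1092 FPKM in vehicle, log2 difference -1.36) fell, and Col14a1 (0.967 FPKM in IL-1β and 5.32 FPKM in vehicle) by 1.68. Fn1, fibronectin and the most abundant member, had 2692 ± 153 FPKM in IL-1β and 4635 ± 182 FPKM in vehicle (log2 difference -0.78, SE 0.067, limma adjusted p = 1.02e-05). Sparc, a collagen-binding glycoprotein, had 1970.4 FPKM in IL-1β and 2622 FPKM in vehicle (log2 difference -0.41). Col5a3 went the other way, with 22.5 ± 1.77 FPKM in IL-1β and 3.78 ± 0.631 FPKM in vehicle (log2 difference 2.30, SE 0.10, limma adjusted p = 1.31e-07), and Postn rose by 0.44. Sox9, the transcription factor that sets chondrocyte identity and acts on Col2a1 and Acan, had 33.4, 33.3, 30.6 and 27.3 FPKM in the IL-1β libraries, against 57.9, 55.4, 59.2 and 56.6 FPKM in the vehicle libraries. For Sox9 the log2 difference was -0.86 (SE 0.072, limma adjusted p = 8.13e-06). All IL-1β values lay below all vehicle values. Of 19 tested chondrocyte transcription factors 7 fell, 2 rose and 10 did not pass (median log2 difference -0.25). Sox8 (1.56 FPKM in IL-1β and 5.28 FPKM in vehicle, log2 difference -1.30), Foxa2 (0.508 FPKM in IL-1β and 2.64 FPKM in vehicle, log2 difference -1.27), Erg (2.22 FPKM in IL-1β and 5.44 FPKM in vehicle, log2 difference -1.0) and Sox6 (10.2 FPKM in IL-1β and 15.4 FPKM in vehicle, log2 difference -0.56) fell. Foxa2 was under 1 FPKM in every IL-1β library, passed the filter only through vehicle and had to differ. Sox5 (7.22 FPKM in IL-1β and 6.38 FPKM in vehicle, limma adjusted p = 0.17) and the abundant Barx1 (24.1 FPKM in IL-1β and 27.0 FPKM in vehicle, limma adjusted p = 0.355) did not pass. Runx1 (13.8 FPKM in IL-1β and 7.17 FPKM in vehicle, log2 difference 0.86) and Zfp219 (8.54 FPKM in IL-1β and 5.15 FPKM in vehicle, log2 difference 0.64) rose.

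**Figure D4:**
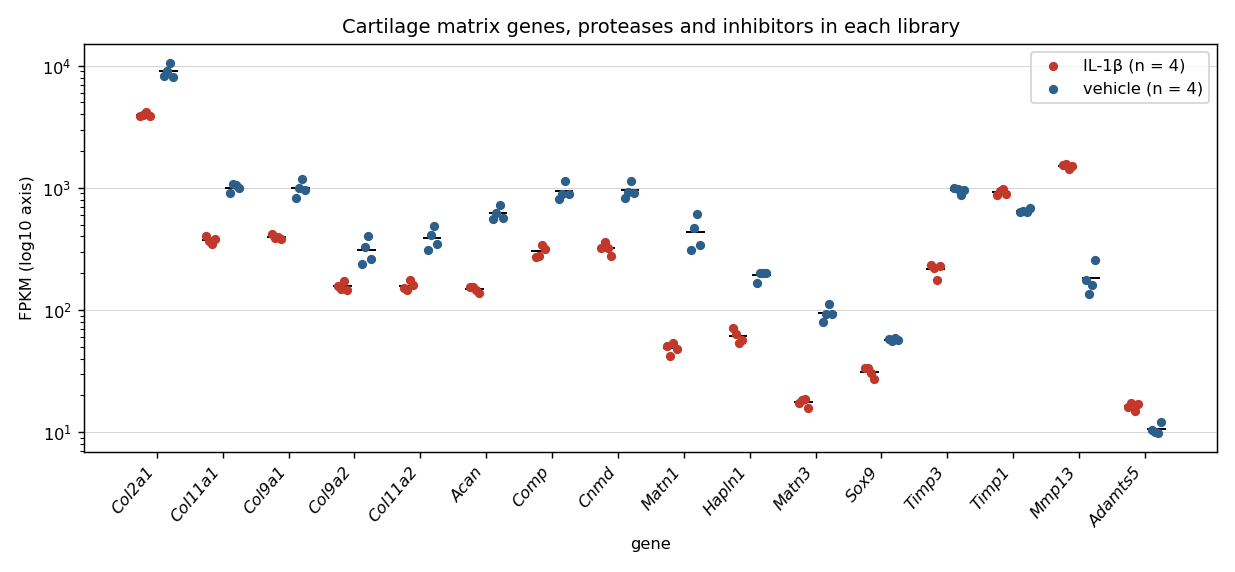
FPKM on a log10 axis for 16 matrix, protease and inhibitor genes, with IL-1β libraries (red, n = 4) left of vehicle libraries (blue, n = 4) and a black line at each group mean. The collagens, Acan, Comp, Cnmd, matrilins, Hapln1, Sox9 and Timp3 lie lower in all 4 IL-1β libraries, and Timp1, Mmp13 and Adamts5 lie higher.

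Glycosaminoglycan synthesis genes fell in 11 of 22 tested members, rose in 2 and did not pass in 9 (median log2 difference -0.19); Chst3, Chst13 and Chst15 were below the filter. Slc26a2, the sulfate transporter needed for chondroitin sulfation, had 13.6 ± 1.21 FPKM in IL-1β and 39.9 ± 2.28 FPKM in vehicle (log2 difference -1.49, SE 0.076, limma adjusted p = 2.87e-07). Papss2, which makes the sulfate donor, had 57.7 ± 3.08 FPKM in IL-1β and 155 ± 11.9 FPKM in vehicle (log2 difference -1.41, SE 0.068, limma adjusted p = 2.04e-07). Chst11 and Csgalnact1, a sulfotransferase and the enzyme that starts chondroitin chains, fell by 0.79 and 0.78. Ext1 and B4galt7, which act on heparan chains and on the shared linker, rose by 0.42 and 0.31, and Ext2 (57.7 FPKM in IL-1β and 68.2 FPKM in vehicle) fell by 0.24. For hyaluronan, 3 of 9 tested members rose, 2 fell and 4 did not pass (median log2 difference 0.12, and -0.013 with equal sums). These counts lie near the 23.4% higher and 16.8% lower over all tested genes. Has2, the main hyaluronan synthase of chondrocytes, had 3.85 ± 0.602 FPKM in IL-1β and 9.31 ± 1.13 FPKM in vehicle (log2 difference -1.09, SE 0.11, limma adjusted p = 3.37e-05), and Ugdh, which makes a sugar precursor, fell by 0.25 with 98.4 FPKM in IL-1β and 118 FPKM in vehicle. Tnfaip6, which modifies hyaluronan in inflammation, had 6.98 FPKM in IL-1β and 4.29 FPKM in vehicle (log2 difference 0.60), and the hyaluronan receptor Cd44 rose by 0.42 with 56.3 FPKM in IL-1β and 41.5 FPKM in vehicle. Has1, Has3 and Habp2 were below the filter. Among hypertrophy and mineralization genes 4 of 12 tested rose, 4 fell and 4 did not pass (median log2 difference 0.099, and -0.043 with equal sums). Without Bglap, which passed the filter only through IL-1β, 3 of the other 11 rose and 4 fell (median 0.0629). The shares to set beside this are again 23.4% higher and 16.8% lower. Spp1, osteopontin, had 1491 ± 125 FPKM in IL-1β and 514 ± 63.7 FPKM in vehicle (log2 difference 1.54, SE 0.10, limma adjusted p = 1.5e-06). Bglap had 5.61 FPKM in IL-1β and 0.30001 FPKM in vehicle and passed the filter only through IL-1β; near-identical copies of this gene exist, and how reads were split among them is not known here. Mgp, an inhibitor of mineralization, had 116 ± 25.1 FPKM in IL-1β and 262 ± 67.8 FPKM in vehicle (log2 difference -1.16, SE 0.19, limma adjusted p = 0.00089). Pth1r, the receptor for parathyroid hormone-related protein, had 8.19 FPKM in IL-1β and 18.4 FPKM in vehicle (log2 difference -1.07), Panx3 and Vegfa rose by 0.51 and 0.46, and Ibsp and Alpl fell by 1.20 and 0.56. Ihh and Dmp1 were below the filter, and Ankh was not matched by symbol.

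Growth factor pathways changed in both directions. In the TGF-β and BMP list, 11 of 31 tested members rose, 10 fell and 10 did not pass (median log2 difference 0.13, and -0.016 with equal sums). Of those tested, 2, among them Chrdl1, were under 1 FPKM in every IL-1β library, passed the filter only through vehicle and had to differ. Among ligands, Tgfb1 (15.5 FPKM in IL-1β and 8.15 FPKM in vehicle, log2 difference 0.85) and Inhba (13.9 FPKM in IL-1β and 6.18 FPKM in vehicle, log2 difference 1.05) rose. Tgfb2 (9.11 FPKM in IL-1β and 17.7 FPKM in vehicle, log2 difference -0.89) and Tgfb3 (8.91 FPKM in IL-1β and 16.8 FPKM in vehicle, log2 difference -0.84) fell. Bmp4 fell by 1.32, with 12.4 ± 6.07 FPKM in IL-1β and 31.2 ± 10.1 FPKM in vehicle, and 1 or more of its libraries overlapped between the groups (limma adjusted p = 0.0138). The type II receptor Tgfbr2 was at 20.5, 19.6, 19.03 and 23.02 FPKM in the IL-1β libraries, against 55.8, 54.6, 56.1 and 53.4 FPKM in the vehicle libraries (log2 difference -1.38, SE 0.067, limma adjusted p = 2.11e-07), whereas the type I receptor Tgfbr1 (6.67 FPKM in IL-1β and 7.42 FPKM in vehicle) did not pass (limma adjusted p = 0.228). Grem1, an antagonist of BMPs, rose with 52.5 ± 6.29 FPKM in IL-1β and 12.8 ± 2.16 FPKM in vehicle (log2 difference 1.96, SE 0.12, limma adjusted p = 1.06e-06), and Chrdl1, another antagonist, fell with 0.727 ± 0.196 FPKM in IL-1β and 6.63 ± 1.68 FPKM in vehicle (log2 difference -2.12, SE 0.16, limma adjusted p = 3.72e-06). The latent TGF-β binding protein Ltbp2 rose by 0.90, with 71.0 FPKM in IL-1β and 37.7 FPKM in vehicle. Smad3 (10.5 FPKM in IL-1β and 17.7 FPKM in vehicle) fell by 0.70, Smad7, the inhibitory member, rose by 0.52, and the TGF-β target Tgfbi had 69.3 FPKM in IL-1β and 186 FPKM in vehicle (log2 difference -1.41). Id3, a BMP target and the most abundant member, rose by 0.36, with 214 FPKM in IL-1β and 167 FPKM in vehicle. Of 16 tested Wnt genes 7 fell, 2 rose and 7 did not pass (median log2 difference -0.24), and 8 were below the filter. The 4 secreted inhibitors Dkk3 (15.0 FPKM in IL-1β and 58.6 FPKM in vehicle, log2 difference -1.90), Frzb (1.60 FPKM in IL-1β and 8.34 FPKM in vehicle, log2 difference -1.83), Sfrp2 (10.4 FPKM in IL-1β and 21.6 FPKM in vehicle, log2 difference -1.01) and Sfrp1 (3.08 FPKM in IL-1β and 6.36 FPKM in vehicle, log2 difference -0.85) fell, and the receptor Fzd9 by 1.57, and the feedback gene Nkd1 by 1.23, while Wnt10b rose by 0.74, with 5.77 FPKM in IL-1β and 3.04 FPKM in vehicle. Nkd1 was under 1 FPKM in every IL-1β library, passed the filter only through vehicle and had to differ. Axin2 and Lgr5 were below the filter.

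In the IGF and FGF list 8 of 22 tested members rose, 9 fell and 5 did not pass (median log2 difference -0.078). Of those tested, 1 passed the filter only through IL-1β and 1 only through vehicle. Igfbp5, a binding protein that holds insulin-like growth factors, had the largest fall of any gene on the lists, at 21.1, 21.2, 24.5 and 25.0 FPKM in the IL-1β libraries, against 196, 206, 240.5 and 220.4 FPKM in the vehicle libraries. Igfbp5 differed by -3.18 on the log2 scale (SE 0.083, limma adjusted p = 5.1e-09). Igf1 (1.46 FPKM in IL-1β and 4.39 FPKM in vehicle, log2 difference -1.13) and Igf2 (1089.6 FPKM in IL-1β and 2196 FPKM in vehicle, log2 difference -1.01), the ligands, fell. The coordinates of Igf2 overlap those of Gm49394 on the same strand, a gene with 0.0283 FPKM in IL-1β and 241 FPKM in vehicle. If exons are shared, the counting could split reads between them. The receptor Igf1r (8.90 FPKM in IL-1β and 9.71 FPKM in vehicle) did not pass (limma adjusted p = 0.309). Igfbp4 (82.3 FPKM in IL-1β and 31.1 FPKM in vehicle, log2 difference 1.39) and Igfbp3 (85.6 FPKM in IL-1β and 42.0 FPKM in vehicle, log2 difference 1.01) rose. Fgf7 (76.8 FPKM in IL-1β and 17.9 FPKM in vehicle, log2 difference 2.05) and the EGF-like ligand Ereg (35.2 FPKM in IL-1β and 9.13 FPKM in vehicle, log2 difference 1.84) rose. Igfbp7, another binding protein, rose by 0.71, with 185 FPKM in IL-1β and 113 FPKM in vehicle. Fgfr3, the receptor that restrains cartilage growth, had 13.8 ± 2.85 FPKM in IL-1β and 40.8 ± 7.26 FPKM in vehicle (log2 difference -1.5, SE 0.15, limma adjusted p = 2.98e-05), Fgfrl1 fell by 1.37, and Fgf21 had 0.931 ± 0.197 FPKM in IL-1β and 9.59 ± 2.47 FPKM in vehicle (log2 difference -2.43, SE 0.15, limma adjusted p = 1.13e-06). Of 20 tested adhesion genes 8 rose, 8 fell and 4 did not pass (median log2 difference -0.060). Among them 1 passed the filter only through IL-1β and had to differ, and of the other 19, 7 rose and 8 fell (median -0.102). Icam1, the ligand of leukocyte integrins, stood at 57.0, 57.4, 53.5 and 52.5 FPKM in the IL-1β libraries, against 31.2, 32.2, 28.3 and 29.2 FPKM in the vehicle libraries. For Icam1 the log2 difference was 0.85 (SE 0.062, limma adjusted p = 3.47e-06), without overlap. Its partner in leukocyte binding, Vcam1 (8.93 FPKM in IL-1β and 7.17 FPKM in vehicle), did not pass (limma adjusted p = 0.142). The heparan sulfate proteoglycans Sdc4 (353 FPKM in IL-1β and 131 FPKM in vehicle, log2 difference 1.43) and Sdc1 (113 FPKM in IL-1β and 44.7 FPKM in vehicle, log2 difference 1.31) rose. The integrin chains Itga6 (13.7 FPKM in IL-1β and 28.6 FPKM in vehicle) and Itgb1 (210.3 FPKM in IL-1β and 248 FPKM in vehicle) fell by 1.02 and 0.24, and the collagen-binding chains Itga10 (3.81 FPKM in IL-1β and 9.23 FPKM in vehicle, log2 difference -1.07) and Itga11 (2.94 FPKM in IL-1β and 5.30 FPKM in vehicle, log2 difference -0.69) fell. Contractile genes and targets of the YAP pathway fell in 11 of 16, with 2 higher and 3 not passed (median log2 difference -0.59). Ccn2, connective tissue growth factor, had 199.6 ± 13.2 FPKM in IL-1β and 659 ± 3.02 FPKM in vehicle (log2 difference -1.72, SE 0.059, limma adjusted p = 2.49e-08). Ccn1 had 203 FPKM in IL-1β and 401 FPKM in vehicle (log2 difference -0.98), and the smooth muscle proteins Cnn1, Myl9 and Acta2 fell by 1.73, 1.21 and 1.16. Ccn3 rose with 85.7 ± 4.71 FPKM in IL-1β and 29.9 ± 1.84 FPKM in vehicle (log2 difference 1.49, SE 0.065, limma adjusted p = 1.19e-07).

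All 22 cholesterol synthesis genes of the list were tested and rose, 16 of them at least 2-fold, with a median log2 difference of 1.34, against 0.034 for all genes. Of the 22, 2 were under 1 FPKM in every vehicle library and so had to be higher; the other 20 all rose, 15 of them at least 2-fold, with a median of 1.34. Hmgcs1, at the start of the pathway, had 67.6, 73.5, 65.1 and 79.8 FPKM in the IL-1β libraries, against 29.2, 25.0, 23.2 and 28.8 FPKM in the vehicle libraries. Hmgcs1 differed by 1.40 on the log2 scale (SE 0.092, limma adjusted p = 1.57e-06). The groups did not overlap. Sqle, a later controlled enzyme, had 69.7 ± 4.84 FPKM in IL-1β and 25.8 ± 3.47 FPKM in vehicle (log2 difference 1.40, SE 0.10, limma adjusted p = 2.22e-06). Msmo1 (95.0 FPKM in IL-1β and 27.3 FPKM in vehicle, log2 difference 1.76), Hsd17b7 (18.6 FPKM in IL-1β and 5.19 FPKM in vehicle, log2 difference 1.66), Mvd (29.2 FPKM in IL-1β and 8.98 FPKM in vehicle, log2 difference 1.60) and Fdps (169 FPKM in IL-1β and 64.6 FPKM in vehicle, log2 difference 1.38), the most abundant member, rose. Srebf2, the factor that drives the pathway, rose (42.1 FPKM in IL-1β and 24.4 FPKM in vehicle, log2 difference 0.76). Insig1, its sterol-dependent brake, had 45.9 ± 2.24 FPKM in IL-1β and 15.5 ± 0.466 FPKM in vehicle (log2 difference 1.5, SE 0.059, limma adjusted p = 5.79e-08). Ch25h, which makes 25-hydroxycholesterol and is induced in inflammation, was at 17.8, 22.2, 24.9 and 20.7 FPKM in the IL-1β libraries, against 0.375, 0.254, 0.320 and 0.464 FPKM in the vehicle libraries. Ch25h differed by 4.04 on the log2 scale (SE 0.11, limma adjusted p = 5.47e-09). Ch25h was under 1 FPKM in every vehicle library and passed the filter only through IL-1β.

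**Figure D5:**
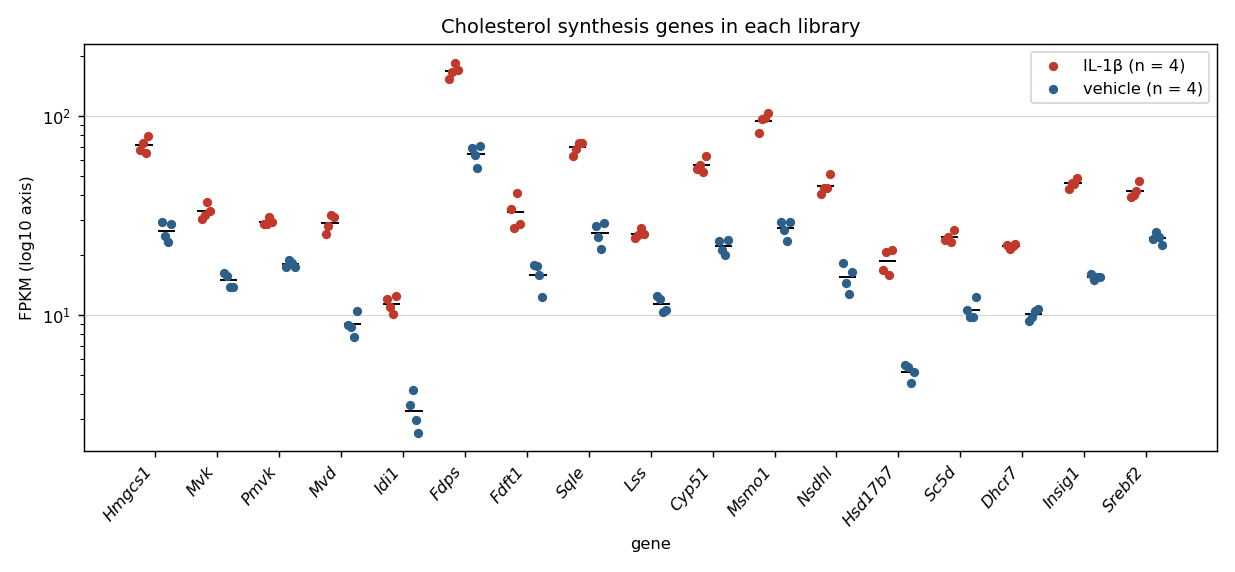
FPKM on a log10 axis for 17 genes of the cholesterol list, the enzymes followed by Insig1 and Srebf2, with IL-1β libraries (red, n = 4) left of vehicle libraries (blue, n = 4) and a black line at each group mean. In each gene the 4 IL-1β libraries lie above the 4 vehicle libraries.

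In glycolysis and the hypoxia response 12 of 25 genes rose, 2 fell and 11 did not pass (median log2 difference 0.23). Epas1, the hypoxia factor HIF-2α, stood at 25.1, 25.4, 26.2 and 28.2 FPKM in the IL-1β libraries, against 2.59, 2.59, 2.13 and 2.23 FPKM in the vehicle libraries (log2 difference 3.01, SE 0.078, limma adjusted p = 5.1e-09), whereas Hif1a (137 ± 18.5 FPKM in IL-1β and 120.1 ± 10.4 FPKM in vehicle) did not pass (limma adjusted p = 0.2). Ldha (2521 FPKM in IL-1β and 1576 FPKM in vehicle, log2 difference 0.67) and Pkm (1814 FPKM in IL-1β and 1260.0 FPKM in vehicle, log2 difference 0.52), the most abundant members, rose, although with quantile normalization Pkm turned to -0.0187 and neither passed (adjusted p = 0.851 for Pkm and 0.305 for Ldha), and the HIF prolyl hydroxylase Egln3 (24.4 FPKM in IL-1β and 9.23 FPKM in vehicle) by 1.31. Slc2a1, the glucose transporter (91.7 FPKM in IL-1β and 97.3 FPKM in vehicle), did not pass (limma adjusted p = 0.761), and Pfkp and Pdk1 fell by 0.36 and 0.22. Respiratory chain genes were higher in 9 of 23 and did not pass in 14 (median log2 difference 0.20, and 0.030 with equal sums), among them Cox4i1 (563 FPKM in IL-1β and 358 FPKM in vehicle, log2 difference 0.65) and Ndufa1 (113 FPKM in IL-1β and 71.4 FPKM in vehicle, log2 difference 0.65). Atp5b (462 FPKM in IL-1β and 504 FPKM in vehicle) did not pass (limma adjusted p = 0.169). Ribosomal protein genes were higher in 12 of 25, lower in 1 and not passed in 12, with a median log2 difference of 0.16 that turned to -0.13 with quantile normalization and -0.0093 with equal sums. Rpl18 (567 FPKM in IL-1β and 340.0 FPKM in vehicle, log2 difference 0.65) and Rps14 (4552 FPKM in IL-1β and 3220.2 FPKM in vehicle, log2 difference 0.49) rose. However, 1 IL-1β library held 952 FPKM of Rpl18, against 411 to 459 FPKM in the other 3, and Rps14 did not pass with quantile normalization (adjusted p = 0.547). Rplp1 (2599 FPKM in IL-1β and 2334 FPKM in vehicle) did not pass (limma adjusted p = 0.312) but fell with quantile normalization (log2 difference -0.37, adjusted p = 0.0215). Rpl4 (960.2 FPKM in IL-1β and 1069.5 FPKM in vehicle) fell by 0.16. Gene length moved with these results: the median log2 difference was 0.184 in the 2461 genes of shortest exonic length and -0.0575 in the 2461 of longest, and the median length was 2154 bases for the respiratory chain and 2007 for ribosomal proteins, against 4460 for all genes that did not pass. The part of length in these differences was not tested beyond the length-centred fit given in the closing section.

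Cell cycle genes fell or did not pass, with 1 exception. The shares over all tested genes were 16.8% lower and 23.4% higher. Of 28 mitosis and G2/M genes 15 fell, none rose (1 rose at an unadjusted p under 0.05 in limma) and 13 did not pass (median log2 difference -0.33), and of 30 DNA replication genes 8 fell, 1 rose and 21 did not pass (median log2 difference -0.11); no member of either list changed 2-fold. Mki67, the proliferation marker, had 7.45, 6.04, 4.46 and 5.33 FPKM in the IL-1β libraries, against 5.03, 6.63, 2.88 and 4.73 FPKM in the vehicle libraries, with overlapping groups, and did not pass (log2 difference 0.25, SE 0.20, limma adjusted p = 0.351). Foxm1, a factor that drives mitotic genes, had 4.62 ± 1.21 FPKM in IL-1β and 9.23 ± 2.04 FPKM in vehicle (log2 difference -0.87, SE 0.18, limma adjusted p = 0.00332). Ccna2 had 21.3 FPKM in IL-1β and 32.4 FPKM in vehicle (log2 difference -0.58), and Ube2c (44.5 FPKM in IL-1β and 56.5 FPKM in vehicle), Kif20a and Plk1 fell by 0.34, 0.48 and 0.47. Mcm6 (21.3 FPKM in IL-1β and 29.0 FPKM in vehicle, log2 difference -0.43) and Cdc6 (2.11 FPKM in IL-1β and 3.08 FPKM in vehicle, log2 difference -0.39), which license replication, fell, Tyms rose by 0.74, and Rrm2 (77.8 FPKM in IL-1β and 75.1 FPKM in vehicle, limma adjusted p = 0.669) and Pcna (49.9 FPKM in IL-1β and 44.5 FPKM in vehicle, limma adjusted p = 0.113), the most abundant, did not pass. Among p53 targets and CDK inhibitors 14 of 25 tested genes rose, 4 fell and 7 did not pass (median log2 difference 0.29). Cdkn1a, the CDK inhibitor p21, was at 175, 164, 167 and 164 FPKM in the IL-1β libraries, against 119, 128, 123 and 118 FPKM in the vehicle libraries. For Cdkn1a the log2 difference was 0.46 (SE 0.052, limma adjusted p = 6.94e-05), without overlap. Trp53inp1 (15.8 FPKM in IL-1β and 6.04 FPKM in vehicle, log2 difference 1.24), Bax (274 FPKM in IL-1β and 123 FPKM in vehicle, log2 difference 1.15), Btg2 (26.5 FPKM in IL-1β and 12.1 FPKM in vehicle, log2 difference 1.07) and Cdkn2b (41.8 FPKM in IL-1β and 21.3 FPKM in vehicle, log2 difference 0.95) rose. Cdkn1c (102 FPKM in IL-1β and 209 FPKM in vehicle, log2 difference -0.99) and Gadd45a (15.2 FPKM in IL-1β and 23.4 FPKM in vehicle, log2 difference -0.59) fell. Of 18 tested cell death regulators 9 rose and 9 did not pass (median log2 difference 0.28), led by Casp4 (31.3 FPKM in IL-1β and 5.92 FPKM in vehicle, log2 difference 2.24), the death receptor effector Bid (24.2 FPKM in IL-1β and 6.77 FPKM in vehicle, log2 difference 1.71) and gasdermin D, Gsdmd (14.0 FPKM in IL-1β and 5.10 FPKM in vehicle, log2 difference 1.31). Mcl1 (36.8 FPKM in IL-1β and 39.3 FPKM in vehicle) did not pass (limma adjusted p = 0.265), and Casp1 and the Bcl2a1 genes were below the filter. Targets of ATF4 and of the unfolded protein response fell in 13 of 22, with 2 higher and 7 not passed (median log2 difference -0.26). Slc7a5, a transporter of large amino acids, had 32.3 ± 1.78 FPKM in IL-1β and 77.4 ± 1.75 FPKM in vehicle (log2 difference -1.24, SE 0.057, limma adjusted p = 1.49e-07). Chac1 (19.998 FPKM in IL-1β and 43.3 FPKM in vehicle, log2 difference -1.08), Trib3 (44.2 FPKM in IL-1β and 76.8 FPKM in vehicle, log2 difference -0.79) and Psat1 (65.9 FPKM in IL-1β and 109 FPKM in vehicle, log2 difference -0.72) fell. Atf4 (218 FPKM in IL-1β and 246 FPKM in vehicle, limma adjusted p = 0.223) and the chaperones Hspa5 (416 FPKM in IL-1β and 409 FPKM in vehicle, limma adjusted p = 0.801) and Calr (757 FPKM in IL-1β and 724 FPKM in vehicle, limma adjusted p = 0.428) did not pass. Sdf2l1 rose by 0.55. Of 15 tested clock genes 4 rose, 2 fell and 9 did not pass (median log2 difference 0.060, and -0.077 with equal sums). These counts lie near the 23.4% higher and 16.8% lower over all tested genes. Bhlhe40 (32.5 FPKM in IL-1β and 15.7 FPKM in vehicle, log2 difference 1.0) and Nfil3 (38.7 FPKM in IL-1β and 21.1 FPKM in vehicle, log2 difference 0.86) were higher and Cry2 lower by 0.32. Arntl (7.69 FPKM in IL-1β and 6.04 FPKM in vehicle) did not pass (limma adjusted p = 0.0576).

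Beyond the lists, the 10 largest decreases held several genes not yet described. C1qtnf3, a secreted relative of adiponectin made by cartilage, stood at 4.62, 5.39, 4.10 and 3.80 FPKM in the IL-1β libraries, against 28.4, 36.4, 45.1 and 33.1 FPKM in the vehicle libraries. C1qtnf3 differed by -2.73 on the log2 scale (SE 0.14, limma adjusted p = 2.78e-07). Msmp had 0.658 ± 0.308 FPKM in IL-1β and 8.42 ± 2.77 FPKM in vehicle (log2 difference -2.47, SE 0.22, limma adjusted p = 1.27e-05). Arsi, an arylsulfatase, had 5.48 ± 0.909 FPKM in IL-1β and 33.0 ± 1.40 FPKM in vehicle (log2 difference -2.40, SE 0.10, limma adjusted p = 9.72e-08). The pseudogene Itih5l-ps had 3.98 FPKM in IL-1β and 30.9 FPKM in vehicle (log2 difference -2.69). Each was lower in all 4 IL-1β libraries. The predicted genes Gm49394 and Gm27786 completed the 10 together with Igfbp5, Matn1, Fgf21 and Matn3; Gm27786 lies within H19 on the opposite strand. Whether the counting used the strand was not given in the sources used here. Other genes named here overlap a second gene from start to end coordinate, and exons were not compared. On the same strand were Col3a1 with Gm47302 (148 FPKM in IL-1β and 505 FPKM in vehicle) and Pkm with Gm49759 (35.8 FPKM in IL-1β and 20.5 FPKM in vehicle). So were Spp1 with Gm42793, Myd88 with Slc22a14, Rpl4 with Snord16a, Timp2 with Cep295nl, Atp5b with Mir677 and Tapbp with Zbtb22. Genes with a partner on the opposite strand included Cebpb, Cebpd, Fosl1, Irak3, Arg2, Bid, Adamts7, Prg4, Cox4i1, Rpl18, Rps14, Dusp1, Col10a1, Tgfb3 and Has2.

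Genes that rose lay near one another in several clusters. Of 461 protein-coding genes at least 2-fold higher, 114 (24.7%) had another such gene within 100 kb. Of the other 10810 tested protein-coding genes, 1186 (11.0%) had one of these 461 within 100 kb. Only tested genes were counted, and the 461 took in genes that passed the filter only through IL-1β. The filter thus had a part in both shares, and the shares were not tested. On chromosome 7 (GRCm38), Saa4 (4.20 FPKM in IL-1β and 0.0120 FPKM in vehicle) rose by 2.35 beside Saa3, Saa1 and Saa2, and the nearby Saal1 (4.50 FPKM in IL-1β and 4.83 FPKM in vehicle) did not pass (limma adjusted p = 0.567). Saa4, Saa1 and Saa2 passed the filter only through IL-1β. On chromosome 9, Mmp13, Mmp12, Mmp3 and Mmp10 lay between 7272514 and 7510240 and all rose. Mmp12 and Mmp10 passed the filter only through IL-1β and had to differ. Their neighbours Mmp1a, Mmp1b, Mmp8 and Mmp27 were below the filter. On chromosome 5, Cxcl5, Cxcl3, Cxcl1 and Cxcl2 rose between 90759360 and 90905938, of which Cxcl2 passed the filter only through IL-1β. Ppbp between them fell, and Pf4 and Cxcl15 were below the filter. The adjacent Mthfd2l (5.62 FPKM in IL-1β and 5.33 FPKM in vehicle) did not pass (limma adjusted p = 0.66).

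Markers of other cell types were mostly near 0, with some exceptions that moved with treatment. Of 15 macrophage markers 3 were tested and all 3 rose, Cd68 (7.94 FPKM in IL-1β and 1.41 FPKM in vehicle), Cd14 (15.8 FPKM in IL-1β and 3.85 FPKM in vehicle) and Lyz2 (6.66 FPKM in IL-1β and 3.33 FPKM in vehicle), with the summed list at 30.0 to 35.5 FPKM in IL-1β, against 9.35 to 11.1 FPKM in vehicle; Fcgr1 and Marco were at 0 in all 8 libraries, and Adgre1, Ptprc and Tyrobp were under 0.2 FPKM. Of 10 neutrophil markers Camp (92.4 FPKM in IL-1β and 1.02 FPKM in vehicle, log2 difference 5.58) and S100a8 (40.2 FPKM in IL-1β and 0.149 FPKM in vehicle, log2 difference 5.16) were tested and rose. S100a8 passed the filter only through IL-1β and had to differ. Ly6g, Elane and Ngp were at 0 in all 8, and S100a9, the usual partner of S100a8, had 0.144 FPKM in IL-1β and 0 FPKM in vehicle. The neutrophil list summed to 112 to 143 FPKM in IL-1β, against 0.202 to 1.93 FPKM in vehicle. All 8 lymphocyte markers and all 7 erythroid markers were below the filter, 7 and 5 of them at 0 in every library, with sums of at most 0.543 and 0.299 FPKM in IL-1β, against at most 0.0872 and 0.0565 FPKM in vehicle. Of 10 endothelial markers only Egfl7 was tested, and it rose by 0.72 (list sum 5.36 to 6.94 FPKM in IL-1β, against 2.99 to 4.10 FPKM in vehicle). Of 6 keratinocyte markers only Krt10 was tested, and it rose by 0.67 (sum 2.92 to 4.84 FPKM in IL-1β, against 1.53 to 2.97 FPKM in vehicle). Of 8 osteoclast markers Mmp9, Ctsk (158 FPKM in IL-1β and 72.2 FPKM in vehicle) and Acp5 (8.74 FPKM in IL-1β and 6.89 FPKM in vehicle) rose, with Dcstamp at 0 and a sum of 156 to 182 FPKM in IL-1β, against 75.4 to 83.7 FPKM in vehicle. Of 8 adipocyte markers Fabp4 (367 FPKM in IL-1β and 31.3 FPKM in vehicle), Lpl (11.9 FPKM in IL-1β and 3.21 FPKM in vehicle) and Pparg (7.42 FPKM in IL-1β and 3.93 FPKM in vehicle) rose, with Adipoq and Plin1 near 0 and a sum of 367 to 405 FPKM in IL-1β, against 35.7 to 41.3 FPKM in vehicle. Of 8 osteoblast markers 5 were tested, 1 rose (Bglap) and 3 fell, led by Col1a1, with a sum of 403 to 489.7 FPKM in IL-1β, against 1044 to 1188 FPKM in vehicle. Of 6 tendon markers 5 were tested and 4 fell, led by Tnmd (2.76 FPKM in IL-1β and 15.9 FPKM in vehicle), with a sum of 265 to 280.0 FPKM in IL-1β, against 407 to 519.7 FPKM in vehicle. Of 9 synovial fibroblast markers 8 were tested, 4 rose, led by Pdpn (74.6 FPKM in IL-1β and 23.8 FPKM in vehicle), and 2 fell, Dkk3 and Thy1, with a sum of 174 to 211 FPKM in IL-1β, against 132 to 174 FPKM in vehicle. Of 12 skeletal muscle markers 5 were tested and 3 fell, with a sum of 5.66 to 9.01 FPKM in IL-1β, against 14.5 to 20.9 FPKM in vehicle. The part of other cells in the changes above was not tested.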

How the data were processed

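RNA of 8 libraries, 4 of IL-1β and 4 of vehicle cultures, was compared; groups came from the sample labels. The authors deposited FPKM values per gene and library, and per the labels the libraries were made with a stranded poly(A) kit. Per the submitters' processing notes the tools were Trimmomatic and STAR, with build GRCm38; what program and annotation lay behind the FPKM values, and whether counting used the strand, is not given in the sources used here. Of 55450 gene identifiers 55104 matched GENCODE M21, from which lengths and coordinates were taken, and no mitochondrial gene was listed. A symbol on more than 1 entry (114 symbols) was read from the entry of highest mean.

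Genes that reached 1 FPKM in 4 or more libraries were tested with limma 3.58.1 (R 4.3.3; lmFit and eBayes with a mean-variance trend) on log2(FPKM + 1), IL-1β minus vehicle, with Benjamini-Hochberg adjustment over all genes and a threshold of 0.05. The procedure was tested on simulated data. In low values, 59.5% to 62.8% were whole multiples of 1 fragment within 0.1, so counts were not recovered and no count model was used. Tables and plots used Python 3.11.15, pandas 2.3.3, numpy 2.4.6 and matplotlib 3.10.9.

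The members, the 39 gene lists and the marker lists were chosen with earlier results of these data known. Genes were named by a rule: a set of inflammatory, matrix and cell cycle genes, the 10 largest increases and decreases without overlap between groups (predicted genes by symbol only), up to 4 changed members per list and direction, the most abundant members, and ligands, receptors and rate-limiting enzymes. Genes named in addition, such as Fosl1, Saa4 and the members of the lists in the closing section, were picked after their values were seen. Some genes that the rule would name are not reported here. Alternatives were 3 other scalings, a pseudocount of 0.1, no filter, a filter at 5 FPKM, all 16 libraries in 1 fit, the replicate number as a block, each library left out in turn, and a centring by gene length.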

Additional observations from a re-analysis of the deposited data

Results flagged for a closer look

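In groups of 4 libraries, a value was listed here when 1 library lay so far from the other 3 that its gap to the nearest of them, divided by the group's whole range, was above Dixon's 95% critical value for 4 values. Of 654 groups of values looked at, 38 met this, and chance gives about 1 in 20. The cause was not tested for any of them. Each gene is given below by the library that stood apart, with the range of the other 3 in parentheses. Among the IL-1β libraries the genes with such a library were Atf4 at 177 FPKM (227 to 238), Ccl20 at 77.9 FPKM (58.0 to 61.3), Ccl5 at 45.2 FPKM (28.3 to 30.8), Col2a1 at 4191 FPKM (3889 to 3914), Cytl1 at 4.78 FPKM (3.28 to 3.33) and Fzd9 at 5.17 FPKM (4.401 to 4.53). A single IL-1β library also stood apart for Gm49394 at 0.0883 FPKM (0 to 0.0127), Has2 at 4.75 FPKM (3.47 to 3.60), Igfbp4 at 102 FPKM (74.5 to 77.8), Itih5l-ps at 5.98 FPKM (3.13 to 3.60), Mmp16 at 2.77 FPKM (3.19 to 3.23) and Ptx3 at 897 FPKM (779 to 797). The same was seen in IL-1β for Rpl18 at 952 FPKM (411 to 459), Rplp1 at 3148 FPKM (2358 to 2487), Tab2 at 28.6 FPKM (32.0 to 32.5) and Timp2 at 171 FPKM (184 to 186).

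Among the vehicle libraries such a library was found for Arg2 at 0.218 FPKM (0.0667 to 0.0872), Bmp4 at 16.2 FPKM (34.2 to 37.8), Fgf7 at 12.7 FPKM (19.1 to 20.3), Gch1 at 9.15 FPKM (7.13 to 7.45), Gm49394 at 446 FPKM (151 to 185), Gsta2 at 0.353 FPKM (all at 0) and Hapln1 at 166 FPKM (200.3 to 202). A single vehicle library also stood apart for Il1rap at 6.17 FPKM (4.27 to 4.58), Il1rn at 31.2 FPKM (11.2 to 13.1), Itga6 at 27.4 FPKM (28.9 to 29.1), Nlrc5 at 0.513 FPKM (0.175 to 0.205), Ppbp at 3.63 FPKM (1.96 to 2.21), Rela at 23.2 FPKM (20.3 to 20.6) and Saa4 at 0.0479 FPKM (all at 0). The same was seen in vehicle for Sod2 at 12.9 FPKM (15.7 to 15.998), Tnip3 at 0.0408 FPKM (all at 0), Tyms at 16.9 FPKM (12.4 to 13.1), Ube2c at 53.3 FPKM (57.2 to 58.0), Vnn1 at 0.824 FPKM (1.55 to 1.68), Vnn3 at 0.0462 FPKM (all at 0) and Zfp36l1 at 16.6 FPKM (14.9 to 15.0). The FPKM sum was 423830 in 1 vehicle library, against 413564 to 414743 in the other 3. For Gm49394 both groups held such a library, and the vehicle values all lay far above the IL-1β values. The high vehicle value of Il1rn came from replicate 4, which also held the highest vehicle values of Saa3, Lcn2, Cxcl1, Cxcl5, Ccl2, Il6 and Mmp13. Of the 501 genes at least 2-fold higher in IL-1β, 193 (38.5%) had their highest vehicle value in that library, against 3070 of all 12314 tested genes (24.9%).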

How the results depend on the processing

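Across the alternatives the number of changed genes was 3838 to 5621, against 4948 as reported, and every alternative kept it within 1.5 times that count. The balance moved with the scaling. With equal FPKM sums without Saa3, 3693 genes were lower, against 2064 as reported, and 34.3% of the changed genes were higher, against 58.3% as reported; the share was 45.3% with quantile normalization, 52.4% with median-of-ratios scaling and 51.2% with centring by exonic length, an alternative chosen after seeing the data that gave 4908 changed genes. With a pseudocount of 0.1, 349 genes were at least 2-fold lower, against 224 as reported, since low genes then show larger differences. No gene called in both changed its sign under any of the alternatives: 3773 to 4916 of the 4948 calls were shared, the fewest with the filter at 5 FPKM, which tested 8679 genes. With 1 library left out at a time, 4361 to 4660 genes changed, 710 to 753 of them at least 2-fold.

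Replicate numbers are shared between the groups. The correlations of same-numbered deviations were 0.0511, 0.0544, 0.225 and 0.12, against -0.134 to 0.119 for libraries of different numbers. Whether the numbers mark pairs was not settled, and the main fit did not use them. With the replicate block 5086 genes changed, 726 at least 2-fold. The libraries of replicates 3 and 4, IL-1β replicate 2 and vehicle replicate 1 correlated best with their own number, and the other 2 did not.

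Quantile normalization reversed Pkm (log2 difference -0.0187, adjusted p = 0.851) and Rplp1 (-0.367, adjusted p = 0.0215), and ended the calls of Ldha (0.305) and Rps14 (0.547). Calls lost with a single library left out had adjusted p-values, over every alternative that ended them, of 0.055 to 0.285 for Acp5 (6 libraries, both groups), 0.0534 to 0.205 for Cd44 (6), 0.0776 to 0.0908 for Chuk (4), 0.0531 to 0.105 for Ctf1 (4), 0.0648 to 0.109 for Pdk1 (6), 0.0511 to 0.116 for Ppbp (5), 0.0508 to 0.148 for Rpl18 (5), 0.0649 to 0.126 for Rpl4 (6), 0.0508 to 0.0695 for Ugdh (3) and 0.0507 to 0.0607 for Il6ra (vehicle replicate 3). Equal FPKM sums ended B4galt7 (0.132) and Mmp2 (0.0538), length centring Ext2 (0.0583), no filter Bmp4 (0.0505) and the fit of 16 libraries Cebpd (0.0664). Myd88 lost its call both with equal FPKM sums and with length centring (0.066 to 0.183). In the main fit Mmp2 (81.9 FPKM in IL-1β and 62.8 FPKM in vehicle, limma adjusted p = 0.00449) was higher. So was Myd88 (20.4 FPKM in IL-1β and 16.6 FPKM in vehicle, log2 difference 0.29, limma adjusted p = 0.00869). Of 39 named genes that did not pass, 19 passed under an alternative. Those then higher were Arntl, Ccl25, Hif1a, Irgm1, Isg15, Rela, Sox5, Stat3 and Vcam1, and those then lower were Atf4, Atp5b, Barx1, Dusp1, Fos, Igf1r, Mcl1, Tgfbr1 and Tnfrsf11b; Rplp1 passed as higher with the replicate block and as lower with quantile normalization. A single left-out library gave a call for 9 of them: IL-1β replicate 1 for Ccl25, IL-1β replicate 2 for Arntl and Rela, IL-1β replicate 3 for Arntl, Hif1a and Irgm1, IL-1β replicate 4 for Fos and Isg15, vehicle replicate 3 for Rela, and vehicle replicate 4 for Dusp1 and Vcam1. Adjusted p-values over every alternative that gave a call were 0.0279 to 0.0459 for Ccl25, 0.0189 to 0.0424 for Arntl, 0.0302 to 0.0378 for Rela, 0.0201 for Hif1a, 0.0123 to 0.0362 for Irgm1, 0.0156 to 0.0451 for Fos, 0.0465 for Isg15, 0.00641 to 0.0492 for Dusp1 and 0.016 to 0.0491 for Vcam1. The cause was not tested for any of these. Depth near 16 to 20 M fragments limits what genes under 1 FPKM can show.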

Other observations

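A pair of gene groups was looked at after its values had been seen, so the counts describe and are not tested. Imprinted genes, of which only the copy from 1 parent is expressed, fell in 15 of 23 tested members and rose in 1. Their median log2 difference was -0.559, against 0.034 for all genes, of which 16.8% were lower. The long noncoding RNA H19 had 530, 513, 555 and 502 FPKM in the IL-1β libraries, against 2197, 2129, 2328 and 2141 FPKM in the vehicle libraries (log2 difference -2.06, limma adjusted p = 7.07e-09), and the groups did not overlap. Meg3, a noncoding RNA of another imprinted locus, averaged 45.1 FPKM in IL-1β and 135 FPKM in vehicle (log2 difference -1.57). Mest averaged 720.1 FPKM in IL-1β and 1844 FPKM in vehicle (log2 difference -1.36), and the zinc finger genes Peg3 and Zim1 fell by 1.31 and 2.11. Magel2 averaged 0.444 FPKM in IL-1β and 4.28 FPKM in vehicle (log2 difference -1.86). It was under 1 FPKM in every IL-1β library and passed the filter only through vehicle. Impact rose, with 42.8 FPKM in IL-1β and 24.9 FPKM in vehicle (log2 difference 0.75), and Dlk1 had 47.0 FPKM in IL-1β and 58.7 FPKM in vehicle and did not pass (limma adjusted p = 0.0948).

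Glutathione transferases and vanins rose in 12 of 13 tested members, with a median log2 difference of 2.44. Gsta1, a transferase that detoxifies lipid peroxidation products, had 24.9, 24.5, 26.6 and 17.8 FPKM in the IL-1β libraries, against 1.35, 0.924, 1.49 and 0.664 FPKM in the vehicle libraries (log2 difference 3.54, limma adjusted p = 1.19e-07). The microsomal transferases Mgst2 (37.8 FPKM in IL-1β and 5.27 FPKM in vehicle, log2 difference 2.62) and Mgst1 (16.7 FPKM in IL-1β and 2.26 FPKM in vehicle, log2 difference 2.44) rose, and the third, Mgst3, had 8.96 FPKM in IL-1β and 7.31 FPKM in vehicle and did not pass (limma adjusted p = 0.127). Gsta1 and Gsta2 are similar genes whose shared reads the counting could split.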
